A study of Mus musculus with 2 samples.

Results

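Among 31095 single cells of the aged mouse hippocampus, 306 carried the transcripts of the choroid plexus epithelium, 284 of 15912 in the control library and 22 of 15183 in the tomatidine library. They were chosen from the measured values: a cell needed at least 500 unique molecular identifiers (UMIs, each counting 1 captured probe molecule), at least 5 UMIs and at least 10 per 10000 UMIs summed over 6 markers (Folr1, Kl, Kcnj13, Otx2, Clic6 and Slc4a5), and at least 100 per 10000 UMIs of Ttr. The 7 genes of this rule are therefore described and not offered as findings. The 284 control cells were 1.78% of their library (95% exact Clopper-Pearson interval 1.58 to 2.00) and the 22 tomatidine cells 0.145% (0.0908 to 0.219), so that the control library held 12.9 times as many. With 1 library per group, the amount of plexus that came with the dissected tissue and the diet cannot be told apart.

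The control library came from 4 pooled C57BL/6 mice on standard chow, and the tomatidine library from 4 pooled C57BL/6 mice given the same chow with 0.05% tomatidine, a steroidal alkaloid of tomato, for 3 months. The study used mice of both sexes, 21 months old when the diet began, and all were wild-type. Tissue was flash-frozen and fixed, and transcripts were read with gene-specific probe pairs. The control library held 279525565 UMIs and the tomatidine library 259059908, with medians of 7556.5 and 7897 UMIs per cell. Each group had 1 library, so no spread between mice could be measured, no test between the groups was possible, and every interval below covers counting error only.

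The choroid plexus is a frond of vascular tissue that hangs into the brain ventricles. Its single epithelial layer makes the cerebrospinal fluid by moving sodium, chloride, bicarbonate and water from the blood side to the ventricle side, loads that fluid with carrier proteins, vitamins and hormones, and seals the gap between blood and fluid with tight junctions. It is the main source of transthyretin, the Ttr product, in the brain, and it belongs to the same lineage as the ciliated ependymal cells of the ventricle wall, while the endothelial cells of brain capillaries form the other barrier to the blood.

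Summed over the cells, genes that the rule did not use also marked this epithelium. The label does not describe every cell alone, since 113 control and 9 tomatidine cells also passed as another type, by limits given below. In each library, the level of a gene was taken as its UMIs summed over the cells per 1000000 UMIs of those cells (CPM), and compared with all other cells of the same library. Endothelial-like cells (96 control and 167 tomatidine) and ependymal-like cells (15 and 9) were set apart by at least 5 UMIs and at least 10 per 10000 UMIs of 5 and 6 measured markers, respectively, and served as closer comparisons. Of 9431 genes with at least 50 UMIs over the choroid plexus epithelial cells, 627 (6.65%) exceeded the other cells by 4-fold or more in both libraries, and 439 (4.65%) were below them by as much. The 20 genes with the highest smaller-of-both ratio were Slc16a8, Wdr72, Tmem72, Mfrp, Cldn2, Kcne2, Slc28a3, Aqp1, Pon1, Defb9, Sult1c2, Steap1, F5, Wfdc2, Oca2, Ecrg4, Sult1c1, Prr32, Tmprss11a and Defb11. Several are known for this epithelium: Aqp1 encodes its water channel, Kcne2 a potassium channel subunit, Cldn2 a claudin that lets cations pass, and Slc16a8 a lactate carrier. Aqp1 (chr6:55336432-55348555, plus strand, mm10) stood at 605 CPM in control and 627 CPM in tomatidine cells, against 0.91 and 0.34 CPM in the other cells. Kcne2 (chr16:92292389-92298129, plus strand) stood at 423 and 439 CPM against 0.59 and 0.20.

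Members of this group of 20 were also compared in sequence, because genes that mark 1 epithelium together may share letters near their start sites. OTX2, encoded by a gene of the rule, is the homeodomain factor known to be needed for choroid plexus formation, and its core motif is TAATCC, which reads GGATTA on the opposite strand. Of the 7 genes of the rule and the 20 leading genes, 23 had an entry in the RefSeq promoter table (GRCm38.p6, 250 bases before to 50 after each start, 28 promoters in all), and Ttr, Folr1, Clic6 and Wdr72 had none. The motif occurred on either strand in 4 of the 28 promoters, those of Mfrp, Pon1, Sult1c1 and 1 start of Otx2 itself, against 7.06% of 32851 promoters of the same length. The 3 from the leading genes are printed 5′ to 3′ on the strand of the gene, with the motif in capitals: Mfrp (chr9:44101520-44101819, plus strand, motif starting 134 bases before the start site), Pon1 (chr6:5193897-5194196, minus strand, 176 and 68 bases before) and Sult1c1 (chr17:53990582-53990881, minus strand, 52 bases before).
Mfrp: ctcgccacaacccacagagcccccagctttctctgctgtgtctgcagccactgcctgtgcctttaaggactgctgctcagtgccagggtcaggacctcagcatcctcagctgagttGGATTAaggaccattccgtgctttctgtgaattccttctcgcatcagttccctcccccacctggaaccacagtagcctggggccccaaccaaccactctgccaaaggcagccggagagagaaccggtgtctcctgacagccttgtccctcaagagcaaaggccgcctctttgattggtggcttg
Pon1: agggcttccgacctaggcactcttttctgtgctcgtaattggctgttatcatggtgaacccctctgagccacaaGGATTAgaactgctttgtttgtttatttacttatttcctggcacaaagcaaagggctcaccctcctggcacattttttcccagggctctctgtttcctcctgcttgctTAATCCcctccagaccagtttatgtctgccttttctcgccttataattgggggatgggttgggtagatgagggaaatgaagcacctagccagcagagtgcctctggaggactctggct
Sult1c1: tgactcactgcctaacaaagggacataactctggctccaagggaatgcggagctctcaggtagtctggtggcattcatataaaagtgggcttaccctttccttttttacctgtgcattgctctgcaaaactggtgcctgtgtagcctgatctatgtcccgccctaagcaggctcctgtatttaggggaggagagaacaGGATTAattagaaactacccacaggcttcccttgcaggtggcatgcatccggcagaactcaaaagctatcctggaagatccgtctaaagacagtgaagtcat
The forkhead motif TGTTTAC was in 0 of the 28 promoters against 3.65% of all, and the RFX site GTTGCC in 8 of them, from 7 genes, against 12.5% of all. A match of 6 letters is a description of the sequence and not a measured binding site.

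The genes of the rule had similar levels per cell in both libraries. Ttr had a median of 2227 UMIs per 10000 UMIs in the control cells (lowest 165, highest 4591) and 2088 in the tomatidine cells (396 to 3459), and it alone took 23.3% and 25.7% of all UMIs of these cells. The 6 markers together had a median of 63.4 per 10000 in control and 60.6 in tomatidine cells. Kl, which encodes the anti-ageing protein klotho, was found in 95.1% of control and 100% of tomatidine cells, and Folr1, the folate receptor that carries folate into the fluid, in 94.01% and 90.9%. In the other cells, at median depths of 7594.5 and 7901 UMIs, Kl was found in 18.7% and 13.9% and Folr1 in 2.61% and 0.541%. Otx2 was found in 60.2% and 63.6% of the epithelial cells. The cells just inside the limits had 10.03 (control) and 10.01 (tomatidine) marker UMIs per 10000. Among cells outside that passed the Ttr limit and held at least 5 marker UMIs, the highest had 9.99 and 4.85. In all, 148 control and 21 tomatidine cells passed the Ttr limit but not both marker limits, with medians of 8.77 and 7.30 marker UMIs per 10000, and a looser rule would have added 80 and 7 cells.

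Ttr reached cells far beyond the epithelium. It stood at 283 CPM in the other cells of the control library and 39.5 CPM in those of the tomatidine library, with a UMI in 88.1% and 24.1% of them. The markers were far lower there: Kl stood at 22.4 and 15.6 CPM, Clic6 at 4.98 and 2.79, Folr1 at 2.23 and 0.68 and Slc4a5 at 0.74 and 0.26, each higher in the control library. Kcnj13 stood at 1.42 and 1.43 CPM, and Otx2 was higher in the tomatidine library, at 4.48 and 9.62 CPM. These are averages over all other cells, and the few ependymal-like cells among them shared some of the markers. Folr1 was found in 73.3% (control) and 88.9% (tomatidine) of the ependymal-like cells, Otx2 in 73.3% and 100%, and Clic6 in 60% and 55.6%. Kl was found in 13.3% and 11.1% of them, Kcnj13 in 0% and 33.3%, and Slc4a5 in 0% and 11.1%.

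Depth varied more between cells than between libraries. The median was 5858 UMIs per control cell (769 to 201753) and 6256.5 per tomatidine cell (1022 to 74497), and 13 control and 3 tomatidine cells of over 50000 UMIs supplied 35.6% and 51.0% of the UMIs of their group. Summed levels therefore rest on few cells, above all in the tomatidine library, where 1 cell gave 17.3% of the UMIs. Mitochondrial transcripts took 1.39% and 1.03% of the UMIs, against 0.508% and 0.535% in the other cells. The files share 292 cell barcodes, among them those of 4 control choroid plexus cells and of 0 tomatidine ones, and no barcode belonged to an epithelial cell in both.

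The share of UMIs from epithelial genes varied between the cells. Some of these cells also passed as another type, and their part in this was not tested. Across cells, the summed level of the 20 leading genes ran against that of the neuron markers (Spearman's rho -0.60 over 284 control cells and -0.78 over 22 tomatidine cells) and of the oligodendrocyte markers (-0.49 and -0.54). The ion and water transport genes also ran against the neuron markers (-0.52 and -0.61). Depth varied along with these values. Total UMIs of the cell rose with the leading genes (0.29 and 0.61). They ran against the neuron markers (-0.30 and -0.72) and the oligodendrocyte markers (-0.49 and -0.58). The part of depth in the other values was not tested. Ttr, which helped to choose the cells and is given as a description, was higher in cells with more of the leading genes (0.73 and 0.91). All these are shares of the same cell's UMIs, so that a high share of Ttr leaves less for the rest, and they describe the cells of 1 library each. The leading genes were themselves picked as high in these cells.

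**Figure D1:**
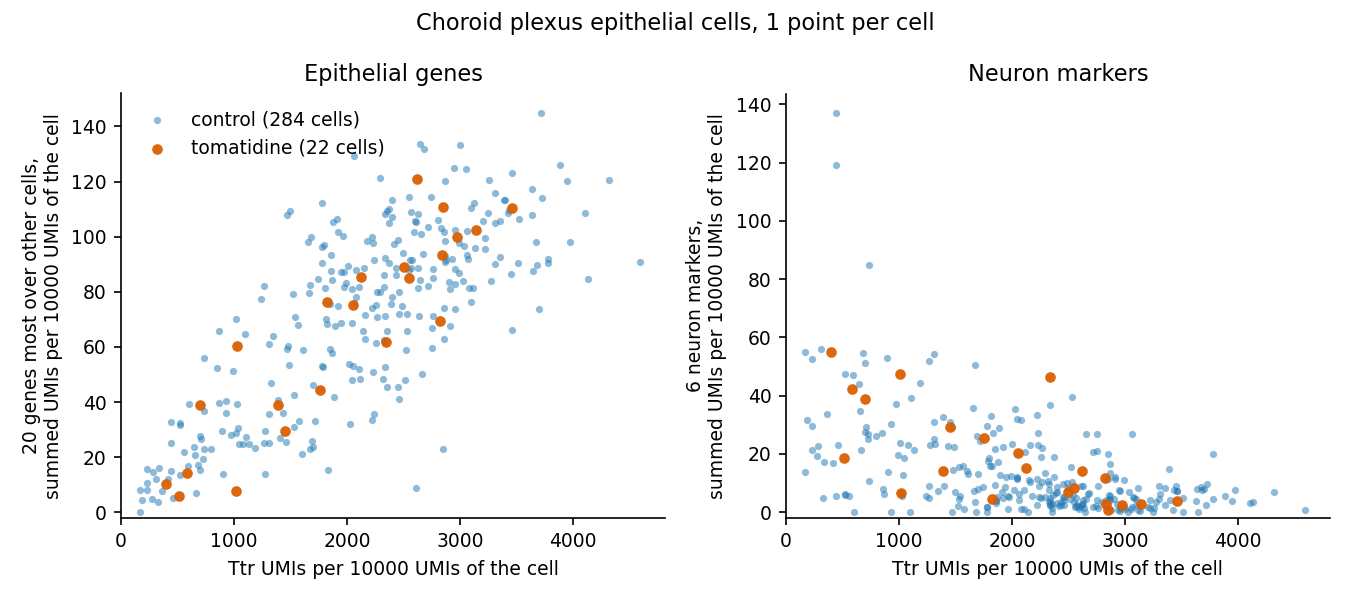
Each point is 1 choroid plexus epithelial cell (284 control, 22 tomatidine); the x axis gives Ttr UMIs per 10000 UMIs of the cell, and the y axes the summed UMIs per 10000 of the 20 leading genes (left) and of 6 neuron markers (right). The leading genes climb with Ttr and the neuron markers decline with it in both libraries, and the tomatidine cells lie among the control cells.

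The genes that make cerebrospinal fluid were the first list examined. Of 25 ion and water transport genes, 23 had at least 50 UMIs and 12 of these exceeded the other cells by 4-fold or more in both libraries, against 6.65% of all genes. The same share applies to the lists that follow. Besides Aqp1 and Kcne2, these held Slc4a2, an anion exchanger that takes in chloride in exchange for bicarbonate, at 1434 CPM in control and 1757 CPM in tomatidine cells against 43.9 and 46.5 CPM in the other cells. Carbonic anhydrase 12 (Car12), which makes bicarbonate at the cell surface, stood at 745 and 826 CPM against 23.4 and 19.4. Trpv4, a calcium channel that senses osmotic change, stood at 319 and 395 CPM against 1.74 and 1.75. Atp1b1, which encodes a beta subunit of the sodium pump, stood at 2452 and 2697 CPM here but at 3921 and 3875 CPM in the other cells.

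Secreted and carrier proteins included the genes of autotaxin and of growth factor carriers. Summed, the list took 63389 CPM in control and 61104 CPM in tomatidine cells, and 14 of 20 genes with at least 50 UMIs exceeded the other cells by 4-fold or more in both libraries. Enpp2 (chr15:54838901-54952892, minus strand), the autotaxin gene, whose product makes lysophosphatidic acid, stood at 30941 CPM in control and 27798 CPM in tomatidine cells, against 441 and 344 CPM elsewhere. Igf2, a growth factor that the adult brain makes mainly in the choroid plexus and meninges, stood at 3357 and 3842 CPM against 43.0 and 65.8. Igfbp2, an insulin-like growth factor binding protein, stood at 2839 and 3642 CPM against 29.9 and 41.1. Ecrg4, which encodes a secreted peptide, stood at 2681 and 2957 CPM against 6.32 and 4.08, and at 809 and 1288 CPM in the ependymal-like cells. Other members were also abundant outside the epithelium: Apoe, Clu and Cst3 stood at 6152, 4541 and 4090 CPM in the control epithelial cells and at 1697, 629 and 1657 CPM in the other control cells.

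Nutrient and drug transporters followed the same pattern, with 17 of 24 genes at least 4-fold higher than elsewhere in both libraries. Slc13a4 carries sulphate, Slc29a4 monoamines, Slc31a1 copper, Slc46a1 folate and Slc23a2 ascorbate. Slc13a4 stood at 593 CPM in control and 652 CPM in tomatidine cells against 7.53 and 13.4, and Slc31a1 at 375 and 427 CPM against 15.3 and 17.1. Slco1c1, a carrier of thyroid hormone, stood at 685 and 617 CPM here and at 1841 and 1695 CPM in the endothelial-like cells. The glucose carrier Slc2a1 went the other way, with 196 and 200 CPM here against 4780 and 4369 CPM in the endothelial-like cells and 2094 and 2049 CPM in the ependymal-like cells.

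Of 23 receptor genes with at least 50 UMIs, 6 exceeded the other cells by 4-fold or more in both libraries, where 6.65% of all genes did. The prolactin receptor gene Prlr stood at 708 CPM in control and 715 CPM in tomatidine cells against 5.75 and 5.18. Htr2c, the serotonin receptor through which serotonin acts on fluid secretion, stood at 583 and 571 CPM against 35.7 and 54.2. The leptin receptor gene Lepr stood at 67.5 and 83.6 CPM against 2.11 and 3.81.

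The junction genes differed from those of the endothelium in kind. Cldn5, the claudin of brain capillaries, stood at 4710 and 4659 CPM in the endothelial-like cells, but in the epithelial cells at 14.0 CPM in control (50 UMIs) and at 0 UMIs in tomatidine, where a count of 0 allows up to 6.96 CPM. Cldn5 was among the markers that set the endothelial-like cells apart, so its high level there follows from that choice and is a description. The epithelial cells carried Cldn1, Cldn2, Cldn3 and Cldn9 instead. Cldn2 (chrX:139800828-139811386, plus strand) stood at 441 and 476 CPM against 1.02 and 0.85 CPM in the endothelial-like cells. Cldn1, a sealing claudin, stood at 186 and 262 CPM against 1.02 and 0.85, and Cldn3 at 64.5 and 51.1 CPM against 0 and 0.85. The scaffold gene Tjp3 and the cingulin gene Cgn, both of epithelial junctions, stood at 60.0 and 70.1 CPM in the control epithelial cells against 0 and 2.05 CPM in the control endothelial-like cells, while Tjp1 was higher in the endothelial-like cells (750 and 694 CPM against 61.7 and 39.5 CPM). Over the list, 8 of 22 genes were at least 4-fold higher than in the endothelial-like cells in both libraries and 4 at least 4-fold lower, against 5.46% and 4.29% of all 9431 genes. Cldn5 is among the lower genes by choice.

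**Figure D2:**
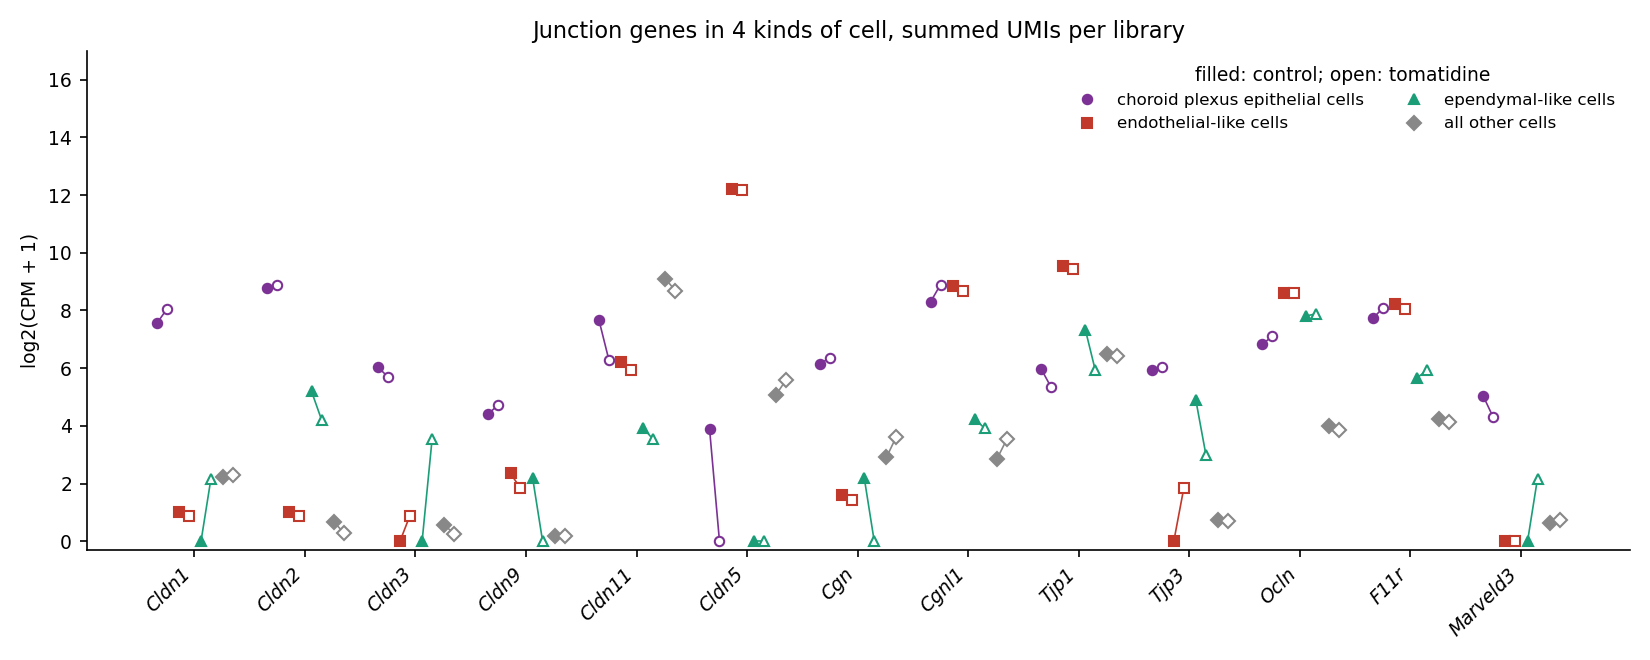
Levels of 13 junction genes as log2(CPM + 1) in 4 kinds of cell, with filled marks for the control and open marks for the tomatidine library and a line joining both. Cldn1, Cldn2, Cldn3 and Cldn9 lie above their endothelial-like levels in the choroid plexus epithelial cells of both libraries, whereas in the endothelial-like cells Cldn5, which helped to choose them, reaches 4710 and 4659 CPM.

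Cilia were 1 of several contrasts with the ependymal-like cells. Of ion and water transport genes, 11 of 23 were at least 4-fold higher than there in both libraries. So were 13 of 24 nutrient and drug transporters, 9 of 20 secreted and carrier genes and 7 of 22 tight junction genes. In the same order, 0, 1, 1 and 3 genes of these 4 lists were at least 4-fold lower. The ependymal-like levels rest on 15 and 9 cells. Of 24 ciliary genes with at least 50 UMIs, 15 were at least 4-fold higher than in all other cells, and 19 were at least 4-fold lower than in the ependymal-like cells in both libraries, as were 5.11% of all genes, while 3.69% of all genes were at least 4-fold higher. All 6 markers that set the ependymal-like cells apart (Ccdc153, Dynlrb2, Rsph1, Rsph4a, Tekt4 and Tmem212) are in this list, and the 3 of them with at least 50 UMIs are among the 19 by choice. Of the 21 other ciliary genes, 16 were at least 4-fold lower. Foxj1, the master factor of motile cilia, stood at 134 CPM in control and 149 CPM in tomatidine epithelial cells, at 1838 and 1828 CPM in the ependymal-like cells, and at 12.02 and 11.9 CPM in the rest. Gmnc, which starts the multiciliated programme, was the one ciliary gene of the 24 with a higher level in the epithelium in both libraries, at 162 and 167 CPM in the epithelium against 24.8 and 45.6 CPM in the ependymal-like cells. Among transcription factor genes, Lmx1a, a roof plate factor, stood at 49.7 and 62.7 CPM against 0.17 and 0.10 CPM in the other cells, and Msx1 at 266 and 367 CPM against 3.24 and 3.82. Genes of the basement membrane added Col9a3 (1741 and 2145 CPM against 20.1 and 16.4) and Col8a1 (604 and 713 CPM against 3.34 and 3.51). Of 22 listed regional factor genes, 13 (hindbrain Hox genes and En1) had 0 UMIs in the epithelial cells of both libraries.

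Several interferon-induced genes were higher in the epithelium than in most other cells, and the ependymal-like cells shared this. Of 20 such genes with at least 50 UMIs, 12 exceeded the other cells by 4-fold or more in both libraries, as did 6.65% of all genes. Lgals3bp, a secreted glycoprotein gene, stood at 1098 and 917 CPM against 27.8 and 31.2, Ifi27 at 861 and 805 CPM against 75.5 and 68.2, and Bst2, which encodes tetherin, at 849 and 789 CPM against 14.6 and 14.6. Summed, the list took 3635 CPM in control and 3143 CPM in tomatidine epithelial cells, 6101 and 7158 CPM in the ependymal-like cells and 3280 and 3871 CPM in the endothelial-like cells. Against the ependymal-like cells, 1 gene was at least 4-fold higher in the epithelium and 7 at least 4-fold lower (3.69% and 5.11% of all genes). The classical members Ifit1, Ifit3 and Isg15 were low in the epithelium, at 20.7, 14.0 and 23.4 CPM in control, and higher in the control ependymal-like cells, at 177, 681 and 177 CPM.

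The study examined tomatidine in several tissues, with cognition and the ageing brain as its focus. Here the 2 groups of epithelial cells were compared gene by gene. Of 3936 genes with at least 200 UMIs over both libraries, 3 (0.0762%) were at least 2-fold higher in the tomatidine cells and 69 (1.75%) at least 2-fold lower, 1.83% in either direction, and the median log2 ratio of tomatidine over control was -0.05. A gene met the minimum mainly through its control UMIs (3582711 against 430792 in tomatidine), so the counts of higher and lower genes were not read against each other. None of the tested genes of 2 lists described above, ion and water transport and nutrient and drug transporters, passed 2-fold. Transport genes outside these lists are not covered by this. Over 366 tested genes at least 4-fold higher here than in the other cells of both libraries, the median log2 ratio was 0.08, and 1 of them was at least 2-fold higher and 2 at least 2-fold lower. That choice used the tomatidine cells too. Chosen on the control library alone, 405 genes had a median of 0.05, with 1 and 2 past 2-fold. Both choices use the levels that are compared, and the medians are descriptions.

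Of the 366 genes, 283 had an interval that included 0, 62 one above 0 and 21 one below. No such counts are given for all tested genes, so the 62 and 21 were not read as a direction. Aqp1 gave 0.05 (-0.14 to 0.23), Kcne2 0.05 (-0.17 to 0.27), Cldn2 0.11 (-0.11 to 0.32) and Htr2c -0.03 (-0.23 to 0.16). These intervals include 0, and the signs of the first 3 turned in at least 1 alternative. The ratio of Htr2c is also too near 0 to carry a direction. Among those whose interval left out 0 were Igfbp2 (0.36, 0.28 to 0.44), Cgnl1, paracingulin (0.60, 0.38 to 0.82), Cldn1 (0.49, 0.19 to 0.78), Slc4a2 (0.29, 0.18 to 0.40) and Enpp2 (-0.15, -0.18 to -0.13). The ratio of Cldn1 was 0.19 with the mean over cells and 0.95 without cells of over 50000 UMIs. Trf, transferrin, which is not among the 366, had -0.53 (-0.64 to -0.42). Without a second library per group, the spread between mice against which these would be judged was not measured.

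Of 284 listed genes that were tested (the sets of other cells' markers left out), 0 were at least 2-fold higher in the tomatidine cells and 6 (2.11%, near the 1.75% of all genes) were at least 2-fold lower, among them Cldn11, Rsph1, Ifi27l2a, Jun and Slc7a5. The ratio of Jun was -1.06, and 0.72 without the epithelial cells that also passed as another cell type. That of Cldn11 was -1.40, but -0.23 with the mean over cells and -0.89 without cells of over 50000 UMIs. Its lowest value under an alternative was -2.34. The median log2 ratio was 0.09 for ion and water transport (22 genes), 0.06 for secreted and carrier proteins (18), 0.09 for nutrient and drug transporters (18), -0.01 for receptors (14), 0.11 for tight junctions (12) and 0.04 for cilia (13), all near the -0.05 of all genes. Of 64 nuclear genes of the respiratory chain, 54 had a ratio below 0 and 10 above, with a median of -0.22, where 2247 of all 3936 genes were below 0. Ndufa2, a subunit of complex I, was the lowest of them at -0.81 (-1.22 to -0.43), and Ndufa13, also of complex I, had -0.12 (-0.29 to 0.05). The list summed to 13666 CPM in control and 11699 CPM in tomatidine epithelial cells, to 10608 and 9436 CPM in the few ependymal-like cells, to 9584 and 9786 CPM in the endothelial-like cells and to 13943 and 13866 CPM in all other cells. Metal handling genes (median -0.24, 13 genes) and Nrf2 targets (-0.25, 16 genes) had 10 of 13 and 15 of 16 genes below 0. The metal handling list summed to 6351 and 5053 CPM here, to 11616 and 9369 CPM in the ependymal-like cells, to 5297 and 5809 CPM in the endothelial-like cells and to 4368 and 4146 CPM in all other cells. Its most abundant gene was Trf (-0.53), and its lowest ratio was that of Fth1 (-0.54). Oligodendrocyte markers also summed lower in the tomatidine epithelial cells (2424 CPM in control and 1221 CPM in tomatidine). Their part in these values and in Cldn11 was not tested. None of the tested genes of these 3 lists passed 2-fold.

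**Figure D3:**
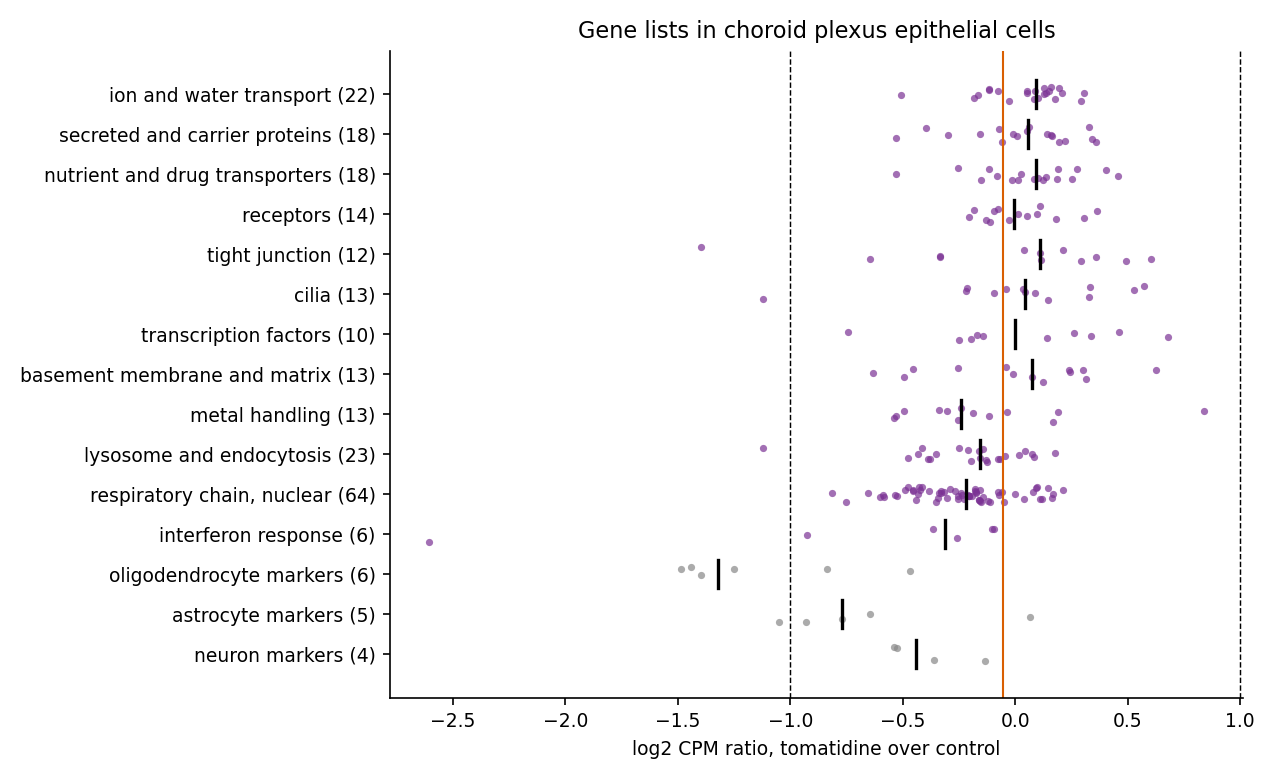
Each point is 1 gene with at least 200 UMIs, placed at its log2 CPM ratio of tomatidine over control in the choroid plexus epithelial cells, for 12 gene lists (purple) and 3 sets of other cells' markers (grey), with the number of genes in brackets. Black bars are list medians, the orange line is the median of all 3936 genes at -0.05, and dashed lines mark 2-fold; the epithelial lists centre near 0, while 4 of 6 oligodendrocyte markers lie past 2-fold lower.

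The genes with the lowest ratios were mostly not epithelial ones. The 10 lowest were C1qb, Ctss, C1qa, Ifi27l2a, Pllp, Gpr37l1, Tspan2, Mal, Cmtm5 and Bcan. C1qa and C1qb encode complement C1q and Ctss a lysosomal protease, all of microglia, and Pllp, Gpr37l1, Tspan2, Mal and Cmtm5 are known from oligodendrocytes or other glia. C1qb stood at 84.9 CPM in control (304 UMIs) and 4.64 CPM in tomatidine cells (2 UMIs), and Mal at 141 and 34.8 CPM. With the mean over cells in place of the sum, the ratio of C1qa was 0.15 in place of -3.32, while that of C1qb was -2.70 in place of -4.19 and that of Ctss -1.93 in place of -3.63. Of the 69 genes at least 2-fold lower, 58 (84.1%) had a lower level in the control epithelial cells than in the other control cells, against 62.0% of the genes within 2-fold. In the same comparison, 2 (2.90%) were at least 4-fold higher in the epithelium, against 10.6% of the genes within 2-fold. Ifi27l2a, an interferon-induced gene, was 1 of these 2.

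**Figure D4:**
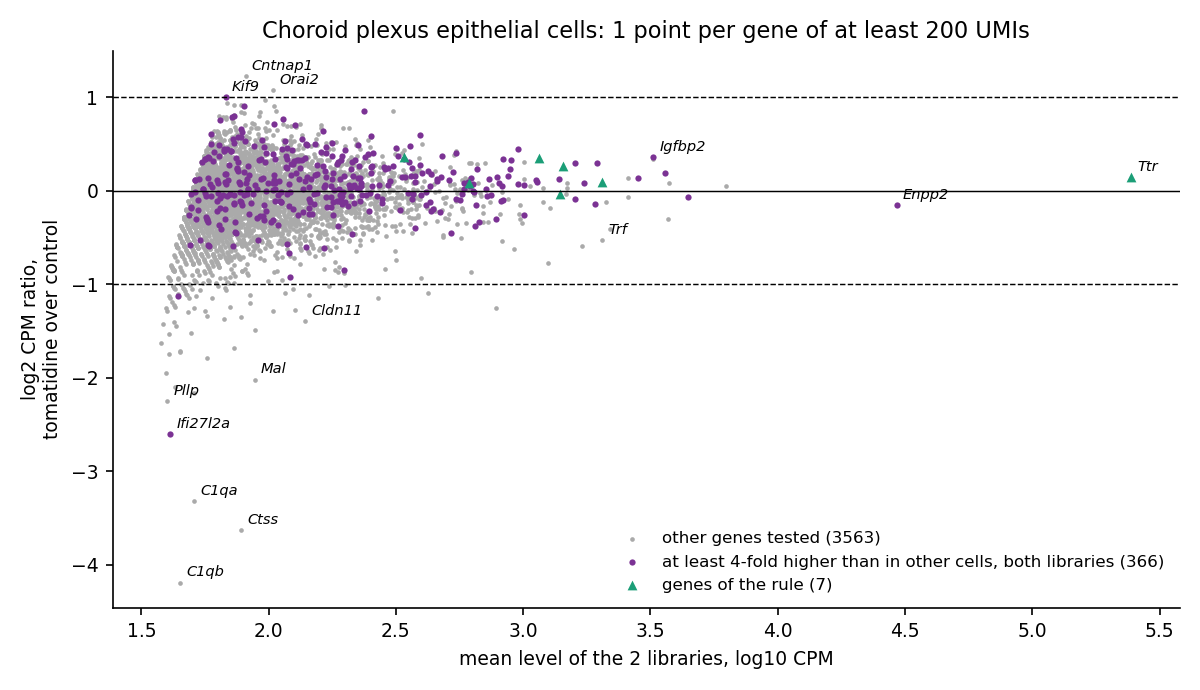
Each point is 1 of 3936 genes in the choroid plexus epithelial cells, with the mean level of both libraries on the x axis (log10 CPM) and the log2 CPM ratio of tomatidine over control on the y axis; dashed lines mark 2-fold. The 366 genes that mark the epithelium (purple) and the 7 genes of the rule (green) stay close to 0 at high levels, and the genes past 2-fold lower are nearly all others (grey).

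Summed levels of other cells' markers were lower in the tomatidine epithelial cells for several types, while their medians per cell were not. The 6 oligodendrocyte markers summed to 2424 CPM in the control and 1221 CPM in the tomatidine epithelial cells, against 5918 and 4922 CPM in the other cells. The 5 microglial markers in the files summed to 387 and 107 CPM, against 475 and 437 CPM, and the astrocyte markers to 989 and 578 CPM, against 1670 and 1901 CPM. Csf1r and Tmem119, defining markers of microglia, had 171 and 63 UMIs in the control and 0 UMIs in the tomatidine epithelial cells, and no other marker of these 3 sets was at 0 in either library. The median cell held 12.9 (control) and 14.2 (tomatidine) oligodendrocyte marker UMIs per 10000, 7.64 and 14.2 of neuron markers, 6.06 and 8.65 of astrocyte markers and 0.79 and 1.17 of microglial markers, each higher in tomatidine, so that the sums rest on few cells. The part of these markers in the ratios of other genes was not tested. By a limit of 10 UMIs and 20 per 10000 UMIs, 113 control (39.8%) and 9 tomatidine (40.9%) epithelial cells also passed as another type: 75 and 5 as oligodendrocytes, 43 and 4 as neurons, 32 and 3 as astrocytes, and 10 and 0 as microglia. Those 10 control cells held 189 (62.2%) of the 304 control UMIs of C1qb. Without the 113 and 9 cells, 13 of 2055 genes were at least 2-fold lower (0.633%) and 18 at least 2-fold higher (0.876%). The ratio of C1qa then came to -1.92, that of Mal to -0.99 and that of Ctss to -3.18. Scrublet, which scores cells for likeness to simulated doublets, called 0 cells in either library, and 2 control and 1 tomatidine epithelial cells were among its top 2% of scores.

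**Figure D5:**
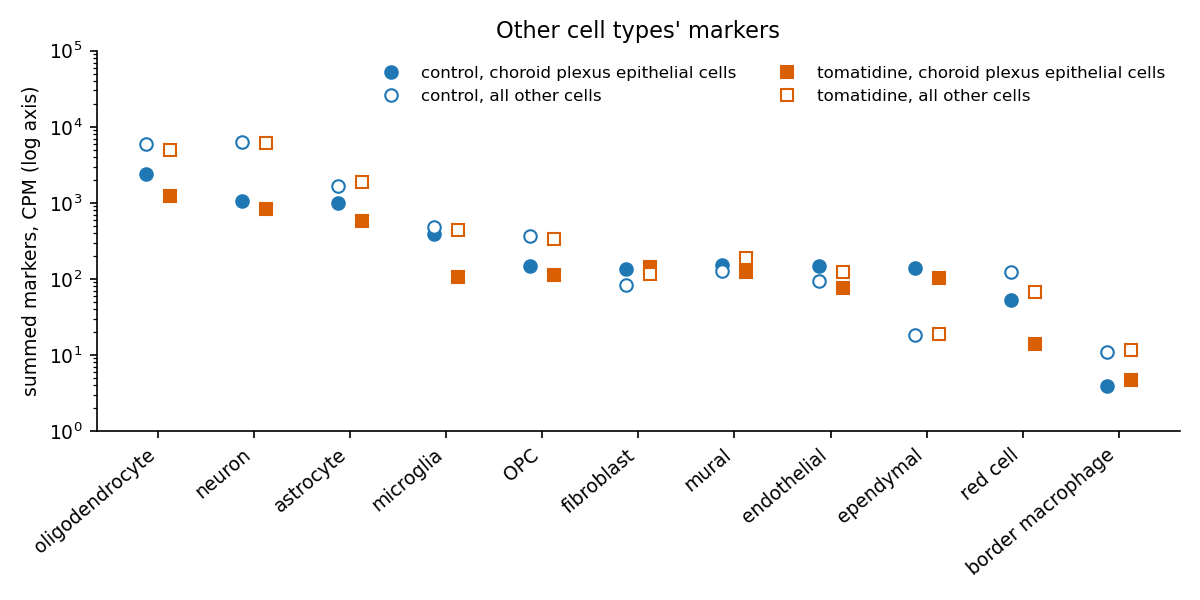
Summed CPM (log axis) of 11 sets of markers in the choroid plexus epithelial cells (filled) and in all other cells (open) of the control (blue circles) and tomatidine (orange squares) libraries. Oligodendrocyte, neuron and astrocyte markers are lower in the epithelial than in the other cells but far from 0, and the microglial sum is 387 CPM in control against 107 CPM in tomatidine epithelial cells, whereas the median cell held 0.79 and 1.17 microglial marker UMIs per 10000.

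Ifi27l2a (chr12:103442167-103443680, minus strand), the interferon-induced gene among the 10 lowest, had 253 UMIs in 52 of the 284 control cells (70.6 CPM), the highest cell holding 50, and 5 UMIs in 3 of the 22 tomatidine cells (11.6 CPM), a log2 ratio of -2.61 (-4.24 to -1.36). Of the control UMIs, 73.9% lay in 10 cells. With the mean over cells the ratio was -1.74, and without the cells that passed as another type -3.40. The gene stood at 24.6 and 12.8 CPM in the endothelial-like cells, at 21.3 and 31.6 CPM in the ependymal-like cells and at 2.73 and 2.51 CPM in all other cells. Whether transcripts of other cells took part in its ratio was not tested. The share of epithelial cells with a UMI was 18.3% (14.0 to 23.3) in control and 13.6% (2.91 to 34.9) in tomatidine, and these intervals overlap. The interferon list as a whole held 6 genes with at least 200 UMIs, all below 0, with a median of -0.31. Of its most abundant members, Lgals3bp had -0.26 (-0.41 to -0.11), and Bst2 and Ifi27 both had -0.10, with intervals from -0.27 to 0.06 and from -0.26 to 0.06. Ifitm3, which encodes an antiviral membrane protein, had -0.93 (-1.45 to -0.44). With the study's cell filter the median was -0.01.

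The 3 genes at least 2-fold higher in tomatidine were Cntnap1, a gene of the axon-glia junction (48.6 CPM in control and 114 CPM in tomatidine, log2 ratio 1.23, 0.74 to 1.69), Orai2, a calcium channel subunit (67.0 and 142 CPM, 1.08, 0.65 to 1.49) and Kif9, a kinesin of motile cilia (45.2 and 90.5 CPM, 1.0, 0.46 to 1.51). Cntnap1 and Orai2 had higher levels in the other control cells (219 and 127 CPM), and 26 of the 61 tomatidine UMIs of Orai2 lay in 1 cell. Kif9 stood at 5.08 and 6.02 CPM in the other cells and at 390 and 474 CPM in the ependymal-like cells. Without the 2 control and 1 tomatidine epithelial cells of top Scrublet scores, 0 genes were at least 2-fold higher, and Cntnap1 had 0.81. With the mean over cells, Orai2 had 0.29 and Kif9 0.04. The next 7 were Scamp3, Plxna4, Galnt17, Neurod2, Aox1, Zfp523 and Whrn, between 0.86 and 0.97. Neurod2, Plxna4 and Galnt17 are neuronal genes, and they stood between 181 and 278 CPM in the other cells of both libraries.

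Cdkn1a and Cdkn2a, whose transcripts were among the senescence readouts of the study, had few UMIs in this epithelium. Cdkn1a, which encodes p21, had 46 UMIs in 24 control cells (8.45%, 5.49 to 12.3) and 0 UMIs in 22 tomatidine cells (0%, 0 to 15.4). By a floor of 3 counts, its 0 UMIs in tomatidine allow a level of up to 6.96 CPM, against 12.8 CPM in control. In the other cells it was found in 8.83% and 8.40%. Because each group was a single pooled library, a group difference in the share of positive cells could not be judged. The intervals cover counting error only. Cdkn2a, which encodes p16, had 3 UMIs in control and 0 in tomatidine cells. Cdkn1c, encoding p57, stood at 238 and 221 CPM against 4.26 and 4.73 CPM in the other cells, with a ratio of -0.11 (-0.43 to 0.20). Of 7 p53 targets and cell cycle inhibitors with at least 200 UMIs, 0 passed 2-fold either way.

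Y-linked transcripts were present in both libraries, for which the sources used here do not give the sex of the pooled mice. They stood at 228 CPM in control and 234 CPM in tomatidine epithelial cells, and at 192 and 194 CPM in the other cells. At 1500 UMIs drawn from each cell, a Y-linked UMI was found in 26.7% (21.4 to 32.3) of 267 cells in the control and in 19.7% (6.41 to 47.6) of 18 cells in the tomatidine library, against 27.6% and 27.7% of the other cells. Without thinning the shares were 59.9% (53.9 to 65.6) and 45.5% (24.4 to 67.8). These intervals cover counting error only. With a single pooled library per group, a difference in this share between the epithelial groups could not be judged.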

How the data were processed

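Fixed cells of the hippocampus were profiled with the 10x Chromium Fixed RNA kit, and the submitters' processing notes name Cell Ranger 8.0.0 and mm10, while the matrix headers name version 7.1.0. The deposited values are counts: whole-number UMIs per probed gene and cell (19059 genes), without normalization. Probe counts cover probed transcripts only, can be shared between near-identical genes such as the Ifi27l2 pair, and their level depends on the probes, so levels were compared between cells and not between genes.

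The members, gene lists and limits were chosen with earlier results of these data known. Cells with at least 500 UMIs entered the rule (31095 cells, with 2 tomatidine cells below this left out). UMIs were summed over cells per library and scaled to CPM. Ratios carry exact conditional binomial intervals and shares Clopper-Pearson intervals, both at 95% and for counting error only. With 1 library per group, no test was made. Genes needed at least 200 UMIs for tomatidine over control and at least 50 for cell types; 2-fold and 4-fold were the size rules. On simulated counts for tomatidine over control (3936 genes), all 200 genes changed 4-fold were recovered and 0.107% of unchanged genes passed 2-fold. These counts were drawn from the summed UMIs with counting error only, without variation between cells or mice. The 0.107% is therefore not a rate against which the measured counts of genes past 2-fold can be read. Named genes were the 7 of the rule, the 20 leading ones, the 10 highest and 10 lowest ratios, Cdkn1a, Cdkn2a, claudins, Y-linked genes and listed genes by role. Of 655 listed genes, 13 were not in the files, and single values of some others are not reported here. Scrublet (scanpy 1.11.5) called 0 doublets, so doublets stayed in, and its 2% of top scores were removed as an alternative. Gene positions are from GENCODE M21 (GRCm38). Python 3.11.15, numpy 2.4.6, scipy 1.17.1 and edgeR 4.0.16 (TMM factors only) were used.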

Additional observations from a re-analysis of the deposited data

How the results depend on the processing

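The control library held 12.6 to 14.7 times as many epithelial cells as the tomatidine library under every alternative tried; without cells that passed as another type, 171 and 13 were left. The number of genes at least 2-fold higher in tomatidine (3) was 0 without the top Scrublet scores, 18 without cells passing as another type, 7 without cells of over 50000 UMIs (an alternative chosen after seeing the data), 126 with the mean over cells, 245 with a minimum of 20 UMIs and 0 with 500. The number at least 2-fold lower (69) was 38 with a stricter rule, 122 with a looser one, 13 without cells passing as another type, 242 with the mean over cells, 1033 at 20 UMIs and 13 at 500. These counts are out of 3936 genes as reported and with the mean over cells, 3144 with the stricter rule, 4634 with the looser one, 3847 without the top scores, 2055 without cells passing as another type, 2287 without the largest cells, and 11299 and 1151 at 20 and 500 UMIs. Of the listed genes, 1 of 266 was at least 2-fold higher with the study's cell filter and 1 of 232 without the cells of over 50000 UMIs. With the mean over cells there were 3 of 284, and at 20 UMIs 4 of 469. Those lower (6 of 284) numbered 3 of 263 with the stricter rule and 3 of 238 without cells passing as another type. They numbered 18 of 284 with the mean over cells, 53 of 469 at 20 UMIs and 2 of 170 at 500. At 20 UMIs this was 11.3% of the listed genes, against 9.14% of all genes. With a minimum of 200 UMIs, 366 genes were at least 4-fold higher and 154 lower than in the other cells, 97 lower than in ependymal-like cells, and 297 higher and 96 lower than in endothelial-like cells; fewer genes are tested there. The Y-linked share of control cells was 19.1% at 1000 UMIs and 44.7% at 3000, as deeper draws find more. Of 56 genes followed singly, 21 changed sign under at least 1 alternative, 16 of them with the mean over cells. Among genes at least 2-fold lower these were C1qa (0.15) and Slc1a3 (0.12) with the mean over cells and Jun (0.72) without cells passing as another type; the cause was not tested. The other 18 had not passed 2-fold, among them Aqp1 (0.05, and -0.13 with the mean over cells), Cldn2 (0.11 and -0.13) and Ecrg4 (0.14 and -0.17). The ratio of Ifi27l2a ran from -3.40 to -1.74, and that of all genes' median from -0.09 to -0.01. The median of the respiratory chain list ran from -0.33 to -0.17, whereas the medians of the ion and water transport and nutrient and drug transporter lists ran from -0.04 to 0.17 and from -0.18 to 0.23, and those of receptors (-0.09 to 0.11), secreted and carrier proteins (-0.08 to 0.19), tight junctions (-0.07 to 0.45) and cilia (-0.02 to 0.19) also crossed 0, so these small values carry no direction. No paired analysis was possible because each group is 1 library whose number is only a name. The 22 tomatidine cells limit every ratio.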

Other observations

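Further lists were counted in the same way in the choroid plexus epithelial cells. Genes of cholesterol synthesis, the pathway behind membrane sterols, had a median log2 ratio of tomatidine over control of 0.22 over 16 tested genes, 12 above 0 and 4 below, with Dhcr7 the highest at 0.46 (-0.10 to 0.99) and Fdps the lowest at -0.56 (-1.21 to 0.03). With the mean over cells, the median was -0.09. The basement membrane and matrix list had a median of 0.07 over 13 genes, in which Col9a3 had 0.30 (0.20 to 0.40) and Col8a1 0.24 (0.06 to 0.41), and 11 of its 18 genes with at least 50 UMIs exceeded the other cells by 4-fold or more in both libraries. The lysosome and endocytosis list had -0.16 over 23 genes, with 1 gene at least 2-fold lower. Antigen presentation had -0.26 over 4 genes, glucocorticoid response 0.11 over 8, stress response by ATF4 0.11 over 9, immediate early and stress genes -0.32 over 4, transcription factors 0.00 over 10, and p53 targets and cell cycle inhibitors 0.06 over 7. Over the alternatives these medians changed sign: antigen presentation ran from -0.47 to 0.48, glucocorticoid response from -0.31 to 0.16, the ATF4 list from -0.31 to 0.15, immediate early and stress genes from -0.50 to 0.09, transcription factors from -0.23 to 0.06 and the p53 list from -0.27 to 0.10.

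Secreted factors of the senescence list had a median of 0.19 over 6 tested genes, with Igfbp7 at 0.33 (-0.08 to 0.71), Vcam1 at 0.26 (-0.02 to 0.52) and Igfbp5 at -0.41 (-0.99 to 0.12). With a minimum of 20 UMIs the median was -0.35 over 17 genes. The cytokine genes Il1b, Il6, Ccl2, Cxcl1 and Cxcl2 were among 9 genes of this list with 0 UMIs in the epithelial cells of both libraries. Gdf15, a stress cytokine gene, had 47 UMIs in the control and 3 in the tomatidine epithelial cells (13.1 and 6.96 CPM, log2 ratio -0.91, -3.24 to 0.72) and stood at 0.16 and 0.22 CPM in the other cells. The single gene Slc30a1, a zinc exporter, had 66.2 and 118 CPM (0.84, 0.37 to 1.28), and Zbtb16, a glucocorticoid target, 48.3 and 83.6 CPM (0.79, 0.23 to 1.32).

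Calb2 showed how 1 cell can set a summed level, since 188 of its 245 control UMIs lay in a single epithelial cell. This gene was in none of the lists and was picked after its values were seen.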
